A study of Mus musculus with 9 samples.

Results

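Kinesins and tubulins are the motor proteins and the building blocks of the microtubule system, and their transcripts were followed through an ac4C immunoprecipitation from mouse testis. The 63 protein-coding genes were chosen by name among the 55401 genes of the table, as those whose symbols begin with Kif or Kifc and a number, or are an alpha-, beta-, gamma-, delta- or epsilon-tubulin. Of these, 20 were tubulins and 43 carried a Kif name, among them Kif1bp, a kinesin-binding protein that has no motor domain. acRIP-seq sequences the poly(A) RNA that an antibody to N4-acetylcytidine (ac4C), a modified cytidine made by NAT10, pulls down on beads. The testes came from male wild-type mice (ICR by the study's methods, with no age given for this experiment), and 3 libraries were made from input RNA, which saw no antibody, 3 from RNA recovered with control immunoglobulin G (IgG) and 3 from RNA recovered with the ac4C antibody (acRIP). The study used enrichment over both IgG and input to define acetylated mRNAs. The sources do not say whether the replicates came from separate animals or precipitations, so p-values measure the spread between these libraries, which may be technical.

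Microtubules are hollow polymers of alpha- and beta-tubulin pairs. Gamma-tubulin nucleates them, and delta- and epsilon-tubulin are needed for the triplet microtubules of centrioles. Kinesins use ATP to carry cargo along microtubules, to cross-link them or to take their ends apart. In the testis they serve the meiotic spindles of spermatocytes, the manchette that shapes the spermatid head, and the axoneme, the core of the sperm flagellum.

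Counts on genes summed to 14647542 to 31340090 per library. Between 28552 and 29642 genes had a count in an input library, 26204 to 26874 in an IgG library and 22206 to 22402 in an acRIP library. The 7 spermatid markers, led by Prm1, Prm2, Tnp1 and Tnp2, summed to 26460 to 36319 FPKM over all libraries, against 184 to 269 for the 5 spermatocyte, 10.8 to 21.3 for the 5 spermatogonial, 203 to 264 for the 6 Sertoli, 598 to 702 for the 5 Leydig and 14.4 to 23.2 for the 4 peritubular markers. The 6 epididymal markers summed to 6.45 to 8.21 FPKM in input, 7.24 to 8.98 in IgG and 21.7 to 22.7 in acRIP. Most of this was Rnase10, which averaged 5.66, 5.44 and 18.0 FPKM, with Cst11 at 1.75, 2.59 and 4.08. Lcn8 and Lcn9 were at 0 in IgG and acRIP. The Sertoli marker Rhox5 and the epididymal markers Lcn5 and Adam28 were at 0 in every library. The 5 erythrocyte markers summed to 179 to 183 FPKM in input, 247 to 267 in IgG and 921 to 1214 in acRIP. Hbb-bs, a beta-globin gene, averaged 153, 207 and 1022 FPKM in these groups, and by the study's methods a beta-globin probe carrying ac4C was mixed into the RNA. Of the 5, only Hbb-bs was higher in acRIP than in IgG by the calls defined below. Hba-a1 averaged 14.8, 33.3 and 33.1 FPKM in input, IgG and acRIP. Alas2 averaged 7.99, 6.47 and 0.855 FPKM and was lower in acRIP than in both groups. The 4 macrophage markers summed to 61.4 to 65.6 in input, 46.1 to 49.0 in IgG and 44.3 to 46.5 in acRIP, and 2 of them were lower in acRIP than in both groups. The part of these markers in the kinesin and tubulin values was not tested.

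FPKM is here the count per kilobase of merged exons and per library total, scaled to the customary FPKM unit and by TMM factors, and it is the scale of every level below. A gene was called when edgeR's quasi-likelihood test gave a Benjamini-Hochberg adjusted p under 0.05 over all 22510 tested genes together with a fold change over 2. Of the 63 genes, 57 passed the filter on low counts and were tested. The other 6 were the beta-tubulins Tubb1, Tubb2b and Tubb4a and the kinesins Kif11, Kif12 and Kif28. Tubb1 had no count in any library, and Kif11, a motor of the bipolar spindle, had 1 count in 1 acRIP library. Kif28 had 8, 2 and 6 counts in acRIP, 0 in each IgG library and 0, 0 and 2 in input.

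The testis transcripts of alpha- and beta-tubulin came mainly from Tuba3a, Tuba3b and Tubb4b. The last 30 coding bases of 5 tubulin genes are shown because they encode the C-terminal tail, where isotypes differ most and tail-modifying enzymes act. Stretches this short do not show how well whole reads tell the genes apart. The bases were read from the GRCm38 genome (RefSeq FASTA) at GENCODE vM21 coding exons, 5′ to 3′ on the gene's strand, with the stop codon in capitals. The positions are chr6:125278358-125278387 (minus strand) for Tuba3a, chr6:145621358-145621387 (plus) for Tuba3b, chr2:25222308-25222337 (minus) for Tubb4b, chr8:123421653-123421682 (plus) for Tubb3 and chr13:34074468-34074497 (minus) for Tubb2a.
Tuba3a: gcagaggcagaagaaggggaggagtacTGA
Tuba3b: gcagaggcagaagaaggggaggagtacTGA
Tubb4b: gaggaggaggctgaggaggaggtggctTAG
Tubb3: gaggaatcggaagcccaggggcccaagTGA
Tubb2a: gaggaggaggagggtgaagatgaggctTGA
The Tuba3a and Tuba3b ends were identical, and their whole coding sequences matched at 97.0% of positions, with 41 mismatches over 1353 bases. Against Tubb4b, the end of Tubb3 differed at 17 of 30 bases and that of Tubb2a at 9.

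Among alpha-tubulins, Tuba3a and Tuba3b stood far above the rest. Tuba3a, on chromosome 6, had 1007, 999 and 1005 FPKM in input, 909, 891 and 868 in IgG and 841, 870 and 835 in acRIP. Tuba3b, on the same chromosome, had 1009, 987 and 1006 FPKM in input, 1146, 1110 and 1093 in IgG and 941, 931 and 915 in acRIP. The libraries of a group lay close together, and acRIP was the lowest group for Tuba3b, while for Tuba3a the acRIP and IgG libraries overlapped. The log2 fold change of acRIP over IgG was -0.27 (SE 0.03, adjusted p = 2.93e-09 from edgeR) for Tuba3b and -0.07 (SE 0.03, adjusted p = 0.0518) for Tuba3a, so neither reached 2-fold. Of summed alpha-tubulin FPKM, the Tuba3a share was 44.6% to 44.8% in input, 40.0% to 40.3% in IgG and 43.1% to 44.3% in acRIP. The Tuba3b share was 44.2% to 44.9%, 50.2% to 50.5% and 47.3% to 48.3%, so IgG libraries held more Tuba3b relative to Tuba3a than the other libraries did. Reads of these paralogs are split by few mismatches, and 12.3% of the 100-base stretches of Tuba3a transcripts also occur in Tuba3b.

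The other alpha-tubulins were far lower. Tuba8 averaged 117 ± 1.84 FPKM (SD, n = 3) in input, 76.0 ± 3 in IgG and 65.3 ± 3.83 in acRIP, and its log2 fold change of acRIP over input was -0.84 (SE 0.05, adjusted p = 2.78e-16 from edgeR). Tuba4a, Tuba1a, Tuba1b and Tuba1c had input means from 21.6 to 43.3 FPKM, and none was called in a comparison. Tuba1a, Tuba1b and Tuba1c are uncertain, since 65.9%, 65.2% and 46.0% of their 100-base stretches occur in other genes. Tuba4a shares 37.3% of its exon bases with Stk16 on the opposite strand. Tubal3, a divergent alpha-tubulin, was the only one called. It had 0.772, 0.743 and 0.597 FPKM in input, 0.538, 0.470 and 0.681 in IgG and 0.122, 0.177 and 0.251 in acRIP. Every acRIP library lay below every other library, at counts of 6, 10 and 13. Its log2 fold change was -1.61 over IgG (SE 0.44, adjusted p = 0.00212 from edgeR) and -1.93 over input (SE 0.43, adjusted p = 0.000186).

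Tubb4b, a beta-tubulin of cilia and flagella, made up 92.3% to 92.7% of summed beta-tubulin FPKM in input, 91.3% to 91.9% in IgG and 89.4% to 89.9% in acRIP. It had 853, 864 and 882 FPKM in input, 688, 684 and 655 in IgG and 540, 538 and 559 in acRIP. The 3 groups were fully separated, in the order input, IgG, acRIP. The log2 fold changes, -0.31 over IgG (SE 0.03, adjusted p = 5.05e-10 from edgeR) and -0.67 over input (SE 0.03, adjusted p = 7.06e-19), were many times their errors and below 2-fold. Pseudogenes and other genes hold 22.0% of its 100-base stretches.

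Tubb3, the class III isotype known from neurons, went the other way. It had 15.4, 13.3 and 16.8 FPKM in input, 12.8, 12.3 and 12.7 in IgG and 19.5, 19.0 and 20.1 in acRIP. All acRIP libraries lay above all others, and its share of beta-tubulin FPKM was 3.16% to 3.24% in acRIP against 1.42% to 1.77% in the other 6 libraries. On the log2 scale, its fold change was 0.63 over IgG (SE 0.10, adjusted p = 1.82e-06 from edgeR) and 0.36 over input (SE 0.09, adjusted p = 0.00108), so Tubb3 was not called. Tubb6 had 30.4, 32.4 and 30.0 FPKM in input, 24.3, 23.6 and 20.9 in IgG and 27.0, 28.1 and 27.3 in acRIP, with acRIP between the other groups. Tubb5, the class I isotype, averaged 13.4 in input, 16.8 in IgG and 12.4 in acRIP and was not called.

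Tubb2a was the only beta-tubulin called. It had 9.05, 12.1 and 11.5 FPKM in input, 7.89, 11.8 and 10.4 in IgG and 3.60, 4.44 and 3.82 in acRIP. Input and IgG overlapped, and every acRIP library lay below both. Its log2 fold change was -1.34 over IgG (SE 0.17, adjusted p = 3.86e-08 from edgeR) and -1.45 over input (SE 0.16, adjusted p = 2.6e-09). Of its 100-base stretches, 36.9% occur in Tubb2b or a pseudogene. The near-identical Tubb2b had 2, 6 and 5 counts in input, 3, 0 and 6 in IgG and 0 in each acRIP library.

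The tubulins outside the polymer wall were not called. Tubg1, the main gamma-tubulin by level, averaged 16.6 ± 0.713 FPKM (SD, n = 3) in input, 13.3 ± 1.09 in IgG and 9.25 ± 0.506 in acRIP. Against IgG this was a log2 fold change of -0.52 (SE 0.10, adjusted p = 3.45e-05 from edgeR) and -0.84 over input. Tubg2 varied from 0.313 to 1.36 FPKM over all libraries with overlapping groups. Tubd1, delta-tubulin, had 34.3, 34.5 and 34.7 FPKM in input, 27.0, 32.5 and 28.1 in IgG and 27.0, 28.3 and 28.7 in acRIP. Tube1, epsilon-tubulin, had 1.2, 1.15 and 0.973 FPKM in input, 0.962, 1.06 and 0.707 in IgG and 1.42, 1.49 and 1.75 in acRIP. All acRIP values of Tube1 lay above the others, with a log2 fold change of 0.77 over IgG (SE 0.18, adjusted p = 0.00036 from edgeR).

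**Figure D1:**
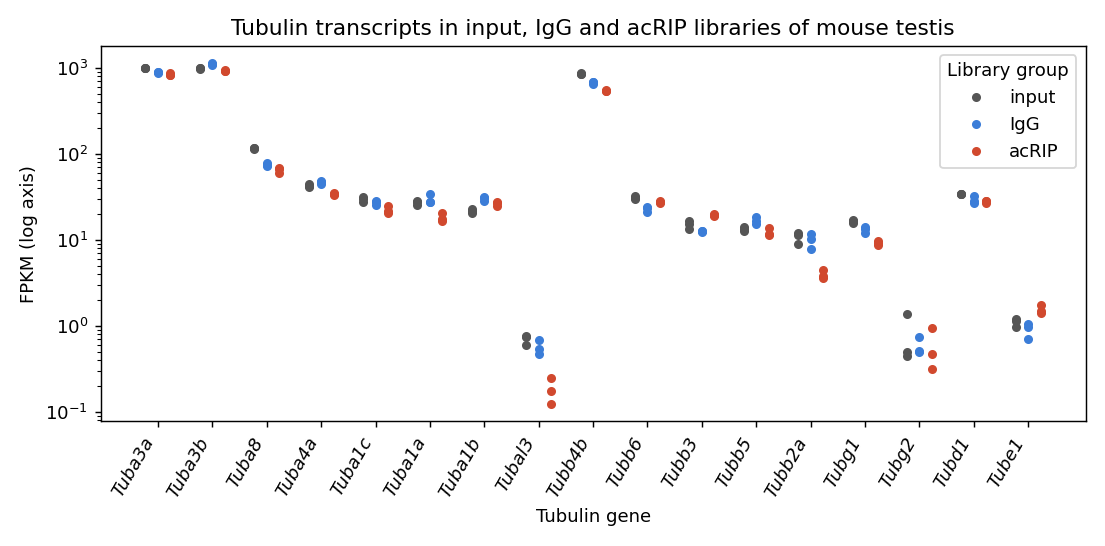
FPKM (log axis) of the 17 tested tubulin genes in each of the 9 libraries, 1 point per library, coloured by group and ordered by family and input level. Tuba3a, Tuba3b and Tubb4b stand above the others in all groups, and Tubal3 and Tubb2a are the genes whose acRIP points all lie below both other groups and whose fitted fold changes pass 2-fold.

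Across both families, few genes were higher in acRIP than in IgG, the comparison of the ac4C antibody with the control antibody. The RNA recovered with either antibody was too scarce to measure, by the study's methods. These fold changes therefore compare relative levels within libraries, not amounts recovered. Of the 57 tested genes, 3 were higher (5.26%, where 11.5% of all tested genes were) and 11 were lower (19.3%, where 20.9% were). The higher genes were the kinesins Kif4, Kifc2 and Kif19a. No tubulin was called higher by edgeR or DESeq2, and at an unadjusted p under 0.05 in edgeR 3 tubulins lay above 0 and 12 below. The median log2 fold change was -0.19 over the 57 genes, -0.27 over the 17 tubulins and -0.10 over the 40 kinesins and Kif1bp, beside -0.09 over all tested genes. Of the 57, 17 lay above 0 and 40 below, and 42 lay within 2-fold. Against input, 5 genes were higher in acRIP (8.77%, where 17.7% of all tested genes were) and 9 were lower (15.8%, where 22.9% were), with a median of -0.35 beside -0.10 over all tested genes. How the lower members compare with all genes depended on the 2-fold limit. Without it, 29 members were lower than IgG (50.9%, where 37.6% of all tested genes were) and 33 lower than input (57.9%, where 40.3% were), most of them by less than 2-fold. When each of the 9 libraries had to hold 10 counts or more, 8 of 50 members were lower than IgG (16%, where 8.89% were).

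The requirement of both comparisons left 2 genes higher in acRIP, Kif4 and Kifc2 (3.51% of the 57, where 7.88% of all tested genes were), and 8 genes lower (14%, where 17% were). These comparisons share the acRIP libraries. The lower genes were Tubal3, Tubb2a, Kif1a, Kif13b, Kifc1, Kif20a, Kif26a and Kif3c. The study's own classes of acetylated genes rest on ratios of FPKM + 1 over IgG and input. With such ratios in place of the count test, 0 genes were higher, so neither Kif4 nor Kifc2 passed. By the same ratios 2 genes were lower, and 9 members lay above 0 in both comparisons at limma's unadjusted p under 0.05. DESeq2 called 2 higher and 8 lower. A ratio of FPKM + 1 cannot exceed 2 when the higher group is at or under 1 FPKM, whatever the fold. Kif26a, Kif3c and Tubal3 could therefore not pass that alternative.

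Kif4 is a chromokinesin, which binds chromosome arms and shapes the central spindle, on chromosome X. It had 72, 78 and 72 counts in input, 0, 2 and 0 in IgG and 98, 112 and 106 in acRIP. On the FPKM scale these were 0.408, 0.626 and 0.572 in input, 0, 0.0192 and 0 in IgG and 1.14, 1.13 and 1.17 in acRIP. The groups did not overlap, with IgG nearly empty and acRIP the highest. Since each IgG library was at or under 3 counts, Kif4 was at least 36.3-fold higher in acRIP than in IgG against 3 counts per library, or 18.2-fold against 6 counts if both mates of a read pair were counted (adjusted p = 1.85e-12 from edgeR). Over input its log2 fold change was 1.11 (SE 0.29, adjusted p = 0.000916), and 0.94 without input replicate 1, which is under 2-fold. Pdzd11, whose exons cover 15.1% of the Kif4 exon bases on the opposite strand, was not low in IgG, with 234, 294 and 349 counts there and 65, 105 and 64 in acRIP.

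Kifc2, a motor with its head at the C-terminal end, had 144, 67 and 64 counts in input, 79, 73 and 71 in IgG and 202, 203 and 153 in acRIP. Its FPKM was 1.15, 0.754 and 0.713 in input, 1.36, 0.984 and 0.971 in IgG and 3.31, 2.88 and 2.37 in acRIP. All acRIP libraries lay above all others, while input and IgG overlapped. On the log2 scale, its fold change was 1.37 over IgG (SE 0.22, adjusted p = 3.71e-06 from edgeR) and 1.69 over input (SE 0.22, adjusted p = 4.63e-08).

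Kif19a, a plus-end depolymerase that limits cilium length, was higher in acRIP than in IgG and lower in IgG than in input. It had 104, 40 and 55 counts in input, 9, 16 and 17 in IgG and 88, 79 and 70 in acRIP. Its log2 fold change was 2.57 over IgG (SE 0.35, adjusted p = 2.03e-07 from edgeR) and 0.93 over input (SE 0.30, adjusted p = 0.00635), and the latter did not reach 2-fold. With 1 library left out, the log2 fold change of Kif19a over input ran from 0.74 to 1.19, so it lay on either side of 2-fold.

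Among the genes lower in acRIP, the transport kinesins of class 3 took 2 places. Kif1a, a carrier of synaptic vesicle precursors in neurons, had 1.92, 1.93 and 1.92 FPKM in input, 2.34, 2.46 and 2.02 in IgG and 0.152, 0.359 and 0.222 in acRIP. Every acRIP library lay far below the others, and no other member with counts in every library had a larger fold over IgG. On the log2 scale, the fold change of Kif1a was -3.19 over IgG (SE 0.19, adjusted p = 1.18e-14 from edgeR) and -2.95 over input (SE 0.19, adjusted p = 5.06e-15). Kif13b had 0.930, 1.02 and 1.03 FPKM in input, 1.21 in each IgG library and 0.524, 0.472 and 0.426 in acRIP. Its log2 fold change was -1.35 over IgG (SE 0.15, adjusted p = 6.65e-09) and -1.07 over input (SE 0.15, adjusted p = 2.31e-07), the latter -0.99 without acRIP replicate 3. Kif13a, its close relative, had 0.472, 0.329 and 0.309 FPKM in input, 0.844, 0.626 and 0.838 in IgG and 0.204, 0.218 and 0.223 in acRIP and was called lower only against IgG, at -1.83 (SE 0.28, adjusted p = 1.2e-06 from edgeR).

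Kifc1, a minus-end motor of spindles and of spermatid head shaping, had 1.62, 1.65 and 1.67 FPKM in input, 1.59, 1.72 and 1.97 in IgG and 1.13, 0.425 and 0.821 in acRIP. The acRIP libraries differed among themselves by more than those of the other groups and stayed below them. The log2 fold change was -1.17 over IgG (SE 0.26, adjusted p = 0.000305 from edgeR) and -1.07 over input (SE 0.26, adjusted p = 0.000549), and -0.85 and -0.74 without acRIP replicate 2. Its near copy Kifc5b was at -1.13 over IgG (adjusted p = 0.000834) and -0.98 over input. The pair share 17.0% and 16.6% of their 100-base stretches, so reads may be split between them.

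Kif20a, which acts in cytokinesis, was ordered input, IgG, acRIP. It had 15, 18 and 16.4 FPKM in input, 3.54, 4.46 and 4.28 in IgG and 2.20, 1.58 and 1.90 in acRIP. All groups were separate, and Kif20a was the member with the largest fall from input among those above 10 FPKM. The log2 fold change was -1.12 (SE 0.12, adjusted p = 4.69e-09 from edgeR) for acRIP over IgG, -3.13 (SE 0.12, adjusted p = 2.28e-21) for acRIP over input and -2 (SE 0.10, adjusted p = 2.86e-17) for IgG over input. Cdc23, on the opposite strand, covers 29.3% of its exon bases and was lower in IgG than in input by 1.39 on the log2 scale, at 0.08 in acRIP over input.

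Kif26a, an atypical kinesin without ATPase activity, and Kif3c, a partner of Kif3a, were at 0 in every acRIP library. Kif26a had 23, 12 and 28 counts in input and 26, 16 and 22 in IgG, and its acRIP level was at least 6.98-fold lower than that of IgG, with acRIP set to 3 counts per library (3.49-fold against 6 counts; adjusted p = 4.4e-06 from edgeR). Against input it was at least 4.56-fold lower (2.28-fold). Kif3c had 16, 29 and 46 counts in input and 10, 20 and 11 in IgG, and its acRIP level was at least 4.28-fold lower than that of IgG (2.14-fold) and at least 6.99-fold lower than that of input (3.49-fold). Genes at 0 in all 3 acRIP libraries made up 8.33% of all tested genes, against 1.37% for IgG and 0.71% for input. Of the Kif3c exon bases, 40.7% overlap other genes on the opposite strand. Among these, 1110002L01Rik had 108, 97 and 103 counts in acRIP against 25, 34 and 24 in IgG.

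**Figure D2:**
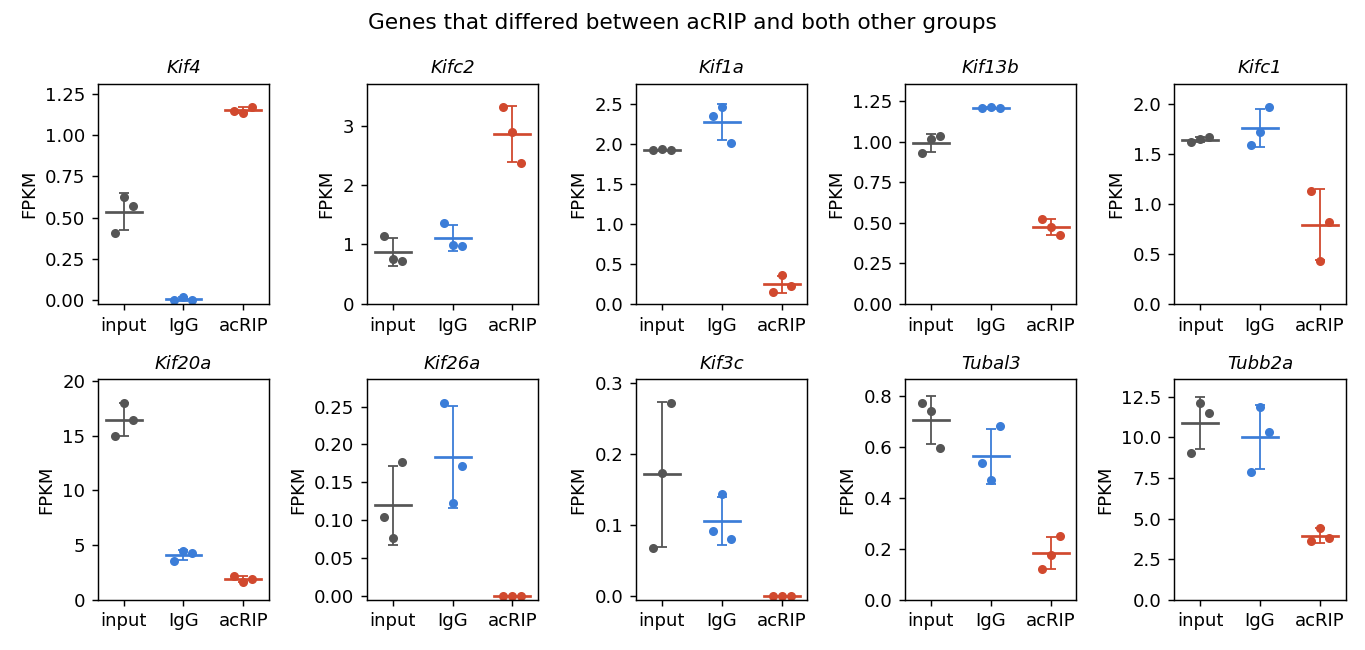
FPKM per library (points) with the group mean (line) and SD (bar, n = 3) for the 10 genes that differed between acRIP and both other groups. Kif4 and Kifc2 are highest in acRIP, and the other 8 genes are lowest there, with Kif26a and Kif3c at 0.

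Calls were most frequent at low levels, for members and for all genes alike. Of the 14 tested members under 1 FPKM in input, acRIP exceeded IgG in 3 called genes and fell below it in 6, where 23.1% and 36.6% of all genes in this range were. Of the 22 members at 10 FPKM and over, none was higher in edgeR and 2 were lower, Tubb2a and Kif20a, where 0.98% and 3.07% of all genes were. Between these, 3 of 21 members were lower, Kif1a, Kifc1 and Kifc5b, and none was higher, where 18.6% and 8.2% of all genes were. At an unadjusted p under 0.05 in edgeR, 3 tubulins, all at 1 FPKM or over in input, lay above IgG, and 12 tubulins lay below it.

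**Figure D3:**
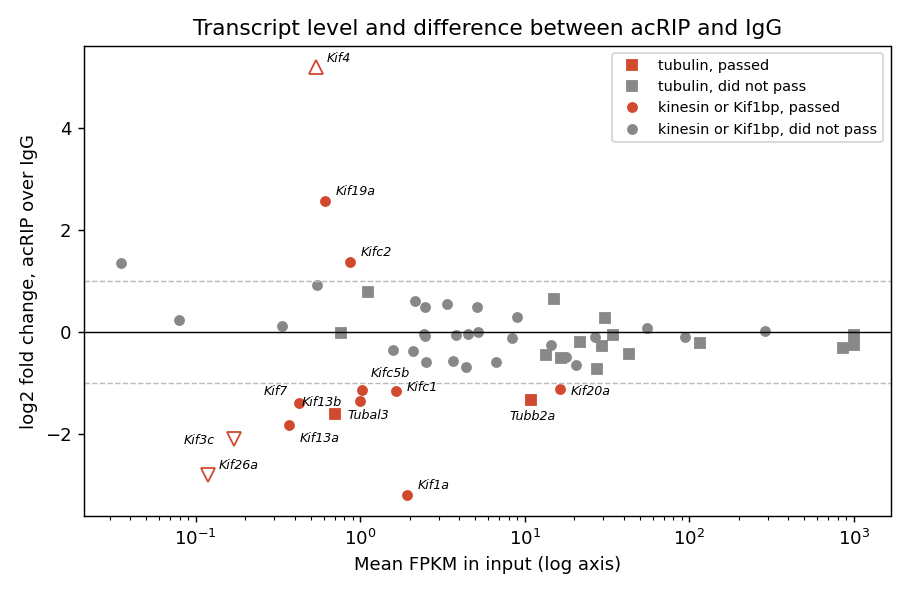
Mean FPKM in input (log axis) against the log2 fold change of acRIP over IgG for the 57 tested genes, squares for tubulins and circles for kinesins and Kif1bp. Open triangles stand for Kif4, Kif3c and Kif26a at their bounds against 3 counts, dashed lines mark 2-fold, and the called genes lie at the left, with Tubb2a and Kif20a farthest to the right.

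The 3 kinesins with the highest input levels, Kif2b, Kif9 and Kif2c, differed little between acRIP and IgG. Kif2b, a microtubule depolymerase of class 13, had 293, 289 and 285 FPKM in input, 197, 190 and 185 in IgG and 192, 194 and 189 in acRIP. Its precipitates overlapped, and the log2 fold change was 0.01 for acRIP over IgG (95% interval -0.07 to 0.08) and -0.59 for acRIP over input (SE 0.04, adjusted p = 1.28e-15 from edgeR). Kif9, a kinesin of the flagellum, had 91.9, 95.5 and 94.3 FPKM in input, 58.6, 60.5 and 63.7 in IgG and 54.6, 55.2 and 61.1 in acRIP. Kif2c, the centromeric depolymerase, had 57.0, 55.2 and 53.3 FPKM in input, 32.7, 33.2 and 31.0 in IgG and 33.2, 34.1 and 34.4 in acRIP. For these 3 motors both precipitates lay below input by a similar amount, and none reached 2-fold.

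Kif3a and Kif3b, which form the motor of intraflagellar transport, averaged 20.6 and 26.9 FPKM in input, 25.2 and 22.5 in IgG, and 16.1 and 21.1 in acRIP. For acRIP over input, both had a log2 fold change of -0.35. The log2 fold change of Kif3a over IgG was -0.64 (SE 0.06, adjusted p = 4.7e-10 from edgeR), against -0.09 for Kif3b, and neither was called. Kif27 of class 4, related to Kif7, had 12.4, 13.1 and 11.9 FPKM in acRIP, below every value of the other groups (16.8 to 19.2). Kif7, a regulator of Hedgehog signalling at the cilium tip, was called lower in acRIP than in IgG at -1.39 (SE 0.39, adjusted p = 0.00244), on 26, 14 and 14 counts against 40, 47 and 63. Kif21b of class 4 and Kif15 of class 12 lay above IgG by 0.54 and 0.48 on the log2 scale, and each had its acRIP libraries above all others. Kif22, a chromokinesin, was at 0.00 over IgG with overlapping libraries. Kif16b, Kif23, Kifc3, Kif5a and Kif6 also overlapped between acRIP and IgG, with log2 fold changes from -0.09 to 0.49. Kif26b was the gene past 2-fold that was not called in acRIP over IgG, at 1.35 over IgG on 14, 20 and 19 counts against 2, 12 and 8 (adjusted p = 0.0693).

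**Figure D4:**
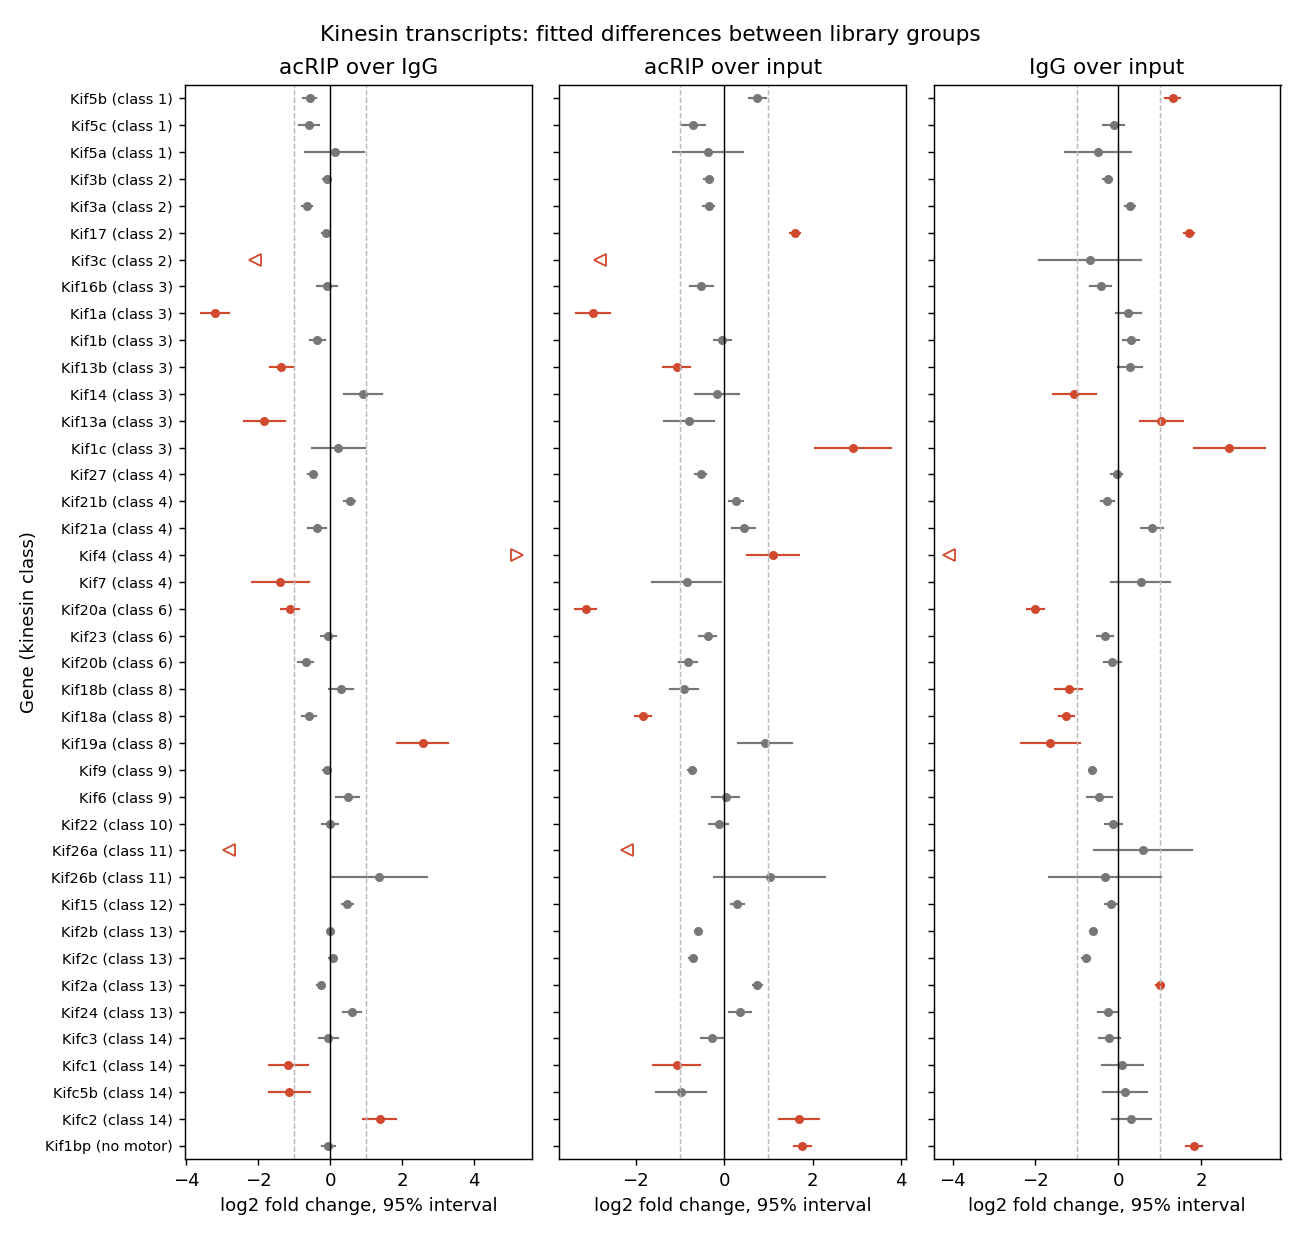
Log2 fold changes with 95% intervals for the 40 tested kinesin genes and Kif1bp, ordered by class and input level, in acRIP over IgG, acRIP over input and IgG over input. Red marks called genes, dashed lines 2-fold, and open triangles the bounds against 3 counts for Kif3c, Kif26a and Kif4. Kif17, Kif1bp and Kif1c stand to the right in both comparisons with input and near 0 between the precipitates.

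The comparison of IgG with input sets RNA from the beads with control antibody against RNA that saw no antibody. The study's methods fix the amount of input RNA that entered each library, whereas the IgG and acRIP RNA was too scarce to measure, so recovery and amplification from little RNA cannot be told apart here. Here 6 members were higher (10.5%, where 13.5% of all tested genes were) and 6 were lower (10.5%, where 7.22% were), with a median of -0.18 beside -0.01 over all tested genes. All were Kif genes. No tubulin was called by edgeR or DESeq2, and at an unadjusted p under 0.05 in edgeR 4 tubulins lay above 0 and 7 below. The higher genes were Kif17, Kif1bp, Kif1c, Kif5b, Kif2a and Kif13a, and the lower ones Kif4, Kif20a, Kif18a, Kif18b, Kif19a and Kif14.

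Kif17, a class 2 motor known in spermatids for its tie to the transcriptional coactivator ACT, was higher in both precipitates. It had 8.27, 8.32 and 8.52 FPKM in input, 27.6, 28.3 and 26.7 in IgG and 24.9, 26.3 and 25.0 in acRIP. Both precipitates lay far above input in every library and differed little from each other. The log2 fold change was 1.72 for IgG over input (SE 0.06, adjusted p = 2.28e-22 from edgeR), 1.60 for acRIP over input (SE 0.06, adjusted p = 1.42e-21) and -0.12 for acRIP over IgG (95% interval -0.228 to -0.00317, adjusted p = 0.0669). The acRIP libraries of Kif17 lay just below the IgG libraries. Kif1bp, which binds kinesin heads and blocks their hold on microtubules, had 2.49, 2.31 and 2.56 FPKM in input, 8.65, 8.80 and 8.60 in IgG and 8.78, 8.22 and 8.16 in acRIP. The log2 fold change was 1.82 for IgG over input (SE 0.09, adjusted p = 1.67e-17), 1.77 for acRIP over input (SE 0.09, adjusted p = 2.87e-17) and -0.05 for acRIP over IgG. The precipitates of Kif1bp overlapped, with a 95% interval of -0.228 to 0.127 for acRIP over IgG.

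Kif1c, a transport kinesin of class 3, had 10, 12 and 20 counts in input, 64, 44 and 78 in IgG and 60, 118 and 36 in acRIP. The precipitates overlapped each other and stood apart from input, with a log2 fold change of 2.68 for IgG over input (SE 0.42, adjusted p = 2.14e-06 from edgeR) and 2.91 for acRIP over input (SE 0.42, adjusted p = 2.78e-07). Kif5b, the widely used heavy chain of conventional kinesin, had 3.50, 3.68 and 3.86 FPKM in input, 8.20, 8.49 and 10.7 in IgG and 6.83, 5.80 and 5.98 in acRIP. IgG was the highest group, at 1.32 over input (SE 0.09, adjusted p = 2.34e-14), and acRIP over input was 0.75. Kif5c, its relative, had 1.35, 1.49 and 1.79 FPKM in acRIP and 2.31 to 2.57 in the other 6 libraries, and was not called. Kif2a, another depolymerase of class 13, had 14.3, 14.6 and 14.5 FPKM in input, 30.1, 27.9 and 29.3 in IgG and 24.4, 23.3 and 25.2 in acRIP, opposite in direction to Kif2b and Kif2c, which were lower in the precipitates. Its log2 fold change of 1.01 for IgG over input (SE 0.05, adjusted p = 5.57e-18) lay just past 2-fold, at 1 without IgG replicate 1 and 0.91 with upper quartile normalization, and was not called there. Kif13a passed at 1.04 and was under 2-fold (0.93 to 0.98) when input replicate 2 or 3, or IgG replicate 1 or 3, was left out.

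All 3 kinesins of class 8, plus-end motors that shorten microtubules, were lower in IgG than in input. Kif18a, which aligns chromosomes, had 6.37, 6.78 and 6.82 FPKM in input, 2.42, 2.90 and 3.04 in IgG and 1.79, 1.93 and 1.87 in acRIP. On the log2 scale, its fold change was -1.25 for IgG over input (SE 0.09, adjusted p = 6.14e-14 from edgeR) and -1.83 for acRIP over input (SE 0.09, adjusted p = 6.82e-18). Kif18b had 8.97, 8.5 and 9.67 FPKM in input, 3, 3.13 and 5.60 in IgG and 4.45, 5.88 and 4.13 in acRIP, at -1.20 for IgG over input (adjusted p = 7.9e-08). Kif19a was at -1.64 (SE 0.35, adjusted p = 0.000218). Kif14, a cytokinesis motor, was at -1.06 (adjusted p = 0.000813), and at -0.98 and -0.94 without input replicate 3 or IgG replicate 1. Kif4, at 0, 2 and 0 counts in IgG, was at least 16.9-fold lower there than in input (8.45-fold against 6 counts).

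**Figure D5:**
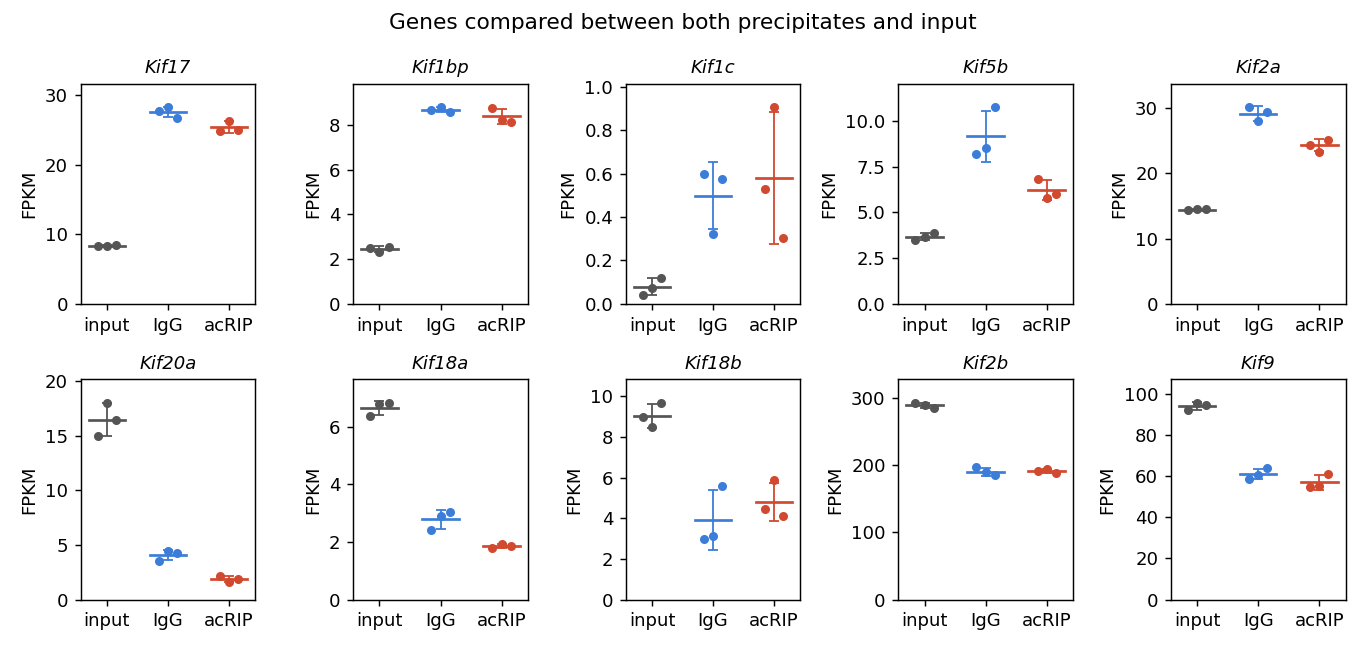
FPKM per library (points) with the group mean (line) and SD (bar, n = 3) for 10 kinesin genes, in the order input, IgG, acRIP. In the top row both precipitates lie above input, and in the bottom row both lie below it.

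Over all 3 comparisons, 22 of the 57 tested genes were called at least once and 35 were not, where 50.5% of all tested genes were called at least once. The kinesins of classes 9, 10 and 12 and the gamma-, delta- and epsilon-tubulins had none. Across the 57 genes, GC content of the exons had a Spearman correlation of -0.00713 with the log2 fold change of acRIP over IgG and 0.16 with that of IgG over input, beside 0.0414 and 0.0722 over all genes with a GC value, and exon length one of 0.0618 and 0.0482. These are descriptions over genes of the same libraries.

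The genes that make, modify and use microtubules around these families were read from lists, whose counts stand beside the shares of all tested genes given above, 11.5% higher and 20.9% lower than IgG and 17.7% higher and 22.9% lower than input. Of 27 tested enzymes of the tubulin tail (Ttll ligases, Agbl peptidases, acetylation and tyrosine-removing enzymes), none was called between acRIP and IgG (median log2 fold change 0.01), and against input 1 was higher in acRIP and 2 were lower. The higher one was Tpgs2, a subunit of the polyglutamylase complex, at 2.47 over input and -0.01 over IgG. The lower ones were Ttll9 (-1.02) and Ttll13, the most abundant of the list at 95.1 FPKM in input, 44.6 in IgG and 45.4 in acRIP. Ttll13 was called lower in both precipitates than in input, at -1.06 in acRIP and -1.09 in IgG. Of 17 folding factors, 2 were higher than IgG, close to the share of all genes, and none was lower. These were the cofactors Tbcd (1.46) and Tbce (1.31), and the CCT chaperonin subunits, led by Tcp1 at 366 FPKM, lay between -0.32 and 0.13. Of 8 genes of the gamma-tubulin ring complex, Tubgcp6 was higher than IgG and input (3.03 and 1.43) and Tubgcp5 lower than both (-2.29 and -2.34), and the most abundant, Mzt2, was at -0.06 over IgG.

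Of 19 dynein and dynactin genes, the minus-end counterparts of kinesin, none was called between acRIP and IgG (median -0.15). Of all tested genes, 11.5% were higher and 20.9% lower in that comparison. Actr1a and Actr1b were lower in acRIP than in input, where 22.9% of all tested genes were. Of 7 kinesin partners outside the name rule, Klc3, a light chain of the sperm tail, was lower in acRIP than in both groups (-1.56 over IgG, -1.89 over input), while Kifap3, the Kif3 adaptor and the most abundant at 156 FPKM, was at -0.36 over IgG. Of 19 tested microtubule-associated proteins, 2 were higher and 2 lower than IgG, and 5 were higher and 4 lower than input. Map7d2 (1.48) and Mapt (1.09) were the higher ones, and Clip2 (-2.13) and Map1s (-1.48) the lower ones, against IgG. Clip2 rested on 0, 6 and 0 counts in acRIP and 8, 12 and 8 in IgG (SE 0.94, adjusted p = 0.0481 from edgeR). Of 7 tested severing genes, Katnbl1, a katanin regulator, was lower in acRIP than in both groups (-2.87 over IgG). Katna1, a catalytic subunit of katanin, was at 0 in every library and was not tested.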

How the data were processed

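Reads were trimmed and mapped to mm10 by the authors, who deposited counts of uniquely mapped reads per gene, not normalized. The submitters' processing notes name Trim Galore 0.6.7, STAR 2.7.10a and featureCounts 2.0.2. Strand use and whether reads or pairs were counted are not given in the sources used here. Of 52 member counts from 1 to 20, 71.2% were even. Identifiers were named by GENCODE vM21 without version. All 63 genes had its coordinates and exon lengths. Counts of 9 libraries, grouped by their labels, were fitted with edgeR 4.0.16 (R 4.3.3; filterByExpr, TMM, quasi-likelihood test, 1 mean per group), and tables and figures were made with Python 3.11.15. In simulated counts for acRIP over IgG, edgeR recovered 96.5% of 200 changed genes among 21596. Recovery at the 2-fold limit or at low counts was not tested separately. Folds against groups at or under 3 counts are bounds and cover counting error only.

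Alternatives were other normalizations, DESeq2 1.42.0, other filters and thresholds, fits of 6 libraries, a replicate block, halved counts, FPKM + 1 ratios over 2 with limma 3.58.1 (unadjusted p under 0.05), and each library left out. Members and lists were chosen with earlier results of these data known. Named members were the 2 most abundant per class, those called the same way against both groups, those called between IgG and input beyond 2 on the log2 scale, and those under the filter. Other members that were called in 1 comparison, or were given to complete a class, were named after their values were seen. List examples were the most abundant and the most changed genes.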

Additional observations from a re-analysis of the deposited data

How the results depend on the processing

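The share of all tested genes called under the same setting stands in parentheses. In acRIP over IgG, 3 members higher became 1 with at least 10 counts in every library (7.48%), 11 with no fold limit (26.4%) and 1 with FPKM ratios (2.94%), and 11 lower became 29 with no fold limit (37.6%), 6 with glmTreat, edgeR's test against 2-fold (16%), and 2 with FPKM ratios (4.27%). In acRIP over input, 5 higher became 15 with no fold limit (32%) and 2 with FPKM ratios (5.24%), and 9 lower became 33 (40.3%) and 4 (5.77%). In IgG over input, 6 higher became 13 (25.9%) and 3 (3.68%), and 6 lower became 22 (26%) and 3 (1.3%), or 3 with glmTreat (2.5%). Against both groups, 2 higher became 1 with at least 10 counts in every library (4.51%; Kif4 was not tested), 8 with no fold limit (18.2%), 0 with glmTreat (4.24%; 1 member at its unadjusted p under 0.05) and 0 with FPKM ratios (1.97%), and 8 lower became 5 (5.65%), 23 (29%), 4 (13.2%) and 2 (2.36%). Members tested were 57, or 50 with at least 10 counts and 62 with FPKM ratios. With no fold limit, the share of members lower than IgG, than input and than both was above that of all genes. In the reported calls it was below. With at least 10 counts it was above for IgG and for both groups, and close to that of all genes for input (6 of 50 members, 12%, where 11.5% were). Other normalizations, DESeq2, no filter, the fits of 6 libraries and halved counts moved no count by over 1.5 times, nor did any library left out (2 to 3 higher and 7 to 9 lower against both groups). An unchanged count can hold different genes. Without input replicate 1, the count of 2 higher against both groups stayed, though Kif4 was then at 0.94 over input, under 2-fold.

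The replicate block gave 3, 11, 5, 9, 6, 6, 2 and 8 in the same order, so it moved no count. Same-numbered libraries of different groups had deviations that correlated at -0.01 to 0.04, and differently numbered ones at -0.03 to 0.03, so the numbers were not read as a pairing.

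Of the 40 called fold changes of single members, none changed sign. In members that were not called, signs near 0 turned. Kif22 over IgG was 0.04 with upper quartile normalization, 0.02 with relative log expression and 0.02 with DESeq2, Kif23 over IgG 0.00 with upper quartile normalization, Kif6 over input -0.01 with it and -0.03 with FPKM ratios, and Kif2b over IgG -0.04 with FPKM ratios. With 1 library left out, the lowest and highest values over IgG were -0.17 and 0.01 for Kif16b, -0.25 and 0.54 for Kif1c, -0.07 and 0.06 for Kif22, -0.13 and 0.03 for Kif23, -0.02 and 0.03 for Kif2b, -0.20 and 0.05 for Kifc3 and -0.12 and 0.03 for Tubd1. For acRIP over input they were -0.38 and 0.06 for Kif14 and -0.02 and 0.09 for Kif6, and for IgG over input -0.80 and 0.08 for Kif26b, -0.07 and 0.01 for Kif27 and -0.24 and 0.04 for Tubb2a. The cause of these changes was not tested. Counts limit Kif4, Kif3c, Kif26a and the other members under 1 FPKM.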
